A study of Mus musculus with 12 samples.

Results

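Sphingosine-1-phosphate (S1P) is made by sphingosine kinases, exported, sensed by receptors at the cell surface and removed by phosphatases and a lyase. The 10 genes described here are the kinases Sphk1 and Sphk2, the exporter Spns2, the receptors S1pr1, S1pr2 and S1pr3, the phosphatases Sgpp1 and Sgpp2, the lyase Sgpl1 and the lipid phosphatase Plpp3. They were chosen by symbol, and all 10 are among the 35856 genes listed in the tables of 2 cell types. These are mural granulosa cells (MGCs), the cells along the follicle wall, and cumulus cells, the cells around the oocyte.

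S1P acts inside cells and, once exported, through a family of G protein-coupled receptors, which makes its level depend on the balance of synthesis, export and breakdown. The kinases add a phosphate to sphingosine, SGPP1 and SGPP2 take it off again in the endoplasmic reticulum, and SGPL1 cleaves S1P irreversibly. In the preovulatory follicle, the luteinizing hormone surge acts in part through epidermal growth factor receptor signaling on somatic cells, and S1P is one of the lipid mediators studied downstream of it.

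The series holds 12 libraries of total RNA, 3 from each of WT MGCs, Sphk1/2gc-/- MGCs, WT cumulus cells and Sphk1/2gc-/- cumulus cells, all collected at 2 h post-hCG (human chorionic gonadotropin, which acts on the luteinizing hormone receptor). WT mice were C57/BL6. The Sphk1/2gc-/- mice were Sphk1-/-; Sphk2 fl/fl; Fshr-Cre, so that Sphk1 was disrupted in every cell and Sphk2 only where the Fshr promoter drives Cre, which is granulosa cells. The study's methods describe immature females primed with equine chorionic gonadotropin. No group carries Fshr-Cre, the floxed allele or the Sphk1 null allele alone. Whether the 3 libraries of a group came from separate animals is not given in the sources used here, and p-values below measure the spread between these libraries only.

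Levels are FPKM, that is fragments per length of exon and per counted fragment, which allows levels of different genes to be compared. The libraries held 16100365 to 19761604 reads behind these values. Differences are given on the log2(FPKM + 1) scale, where 1 FPKM was added to each value, so that changes of transcripts near or below 1 FPKM come out smaller than their plain ratio. A difference was called at a limma adjusted p of 0.05 or less, with Benjamini-Hochberg adjustment over all genes tested. Of the MGC libraries, library 3 of the Sphk1/2gc-/- mice stood apart, with correlations of 0.889 to 0.924 to the others across genes, and WT library 3 had 0.924 to 0.966. Among marker lists, all 4 mural granulosa markers (Lhcgr, Nppc, Cyp11a1 and Star) were called higher in MGCs than in cumulus cells in both genotypes. The cumulus list went partly against its label: Has2 was lower in WT MGCs than in WT cumulus cells, whereas Amh, Slc38a3, Npr2 and Tnfaip6 were higher in MGCs. The summed FPKM of 8 oocyte markers was 26.9 to 113 in the MGC libraries and 2.20 to 7.17 in the cumulus cell libraries. In such bulk samples, fewer cells of a type and less RNA per cell cannot be told apart.

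The targeted kinases were examined first. Sphk1 (ENSMUSG00000061878, GRCm38 chr11:116530925-116536674, plus strand, 4 exon blocks in GENCODE M21) and Sphk2 (ENSMUSG00000057342, chr7:45709467-45718002, minus strand, 8 exon blocks) encode the enzymes that make S1P. The study genotyped the Sphk1 alleles with the primers below, shown with their positions in the gene. The forward primer of the Sphk1-/- assay matched no transcript and is not shown. These positions therefore do not tell which part of the null allele is missing. Capitals mark the bases that match an exon.
Sphk1+/+ forward: TCATCAACTGCACACTGCTG
Sphk1+/+ reverse and Sphk1-/- reverse: GTCCAATGAGAAGGCACTGG
The forward primer lies at chr11:116535641-116535660 and the reverse primer at chr11:116535964-116535983, both in exon 5, the last exon of transcript Sphk1-201. The reverse primer serves the assays of both alleles, so this exon site is used on the null allele as well. Whether reads of a null allele were counted was not tested. For Sphk2, loxP sites flank exons 4 and 6. If these numbers follow an annotated transcript, exons 4 to 6 hold 10.2%, 58.6% or 68.1% of its length, depending on which of 3 transcripts is meant, and the deposited value of Sphk2 is 1 level for the whole gene.

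WT MGC libraries 1 to 3 had Sphk1 levels of 1.68, 1.88 and 0.460 FPKM, and the MGC libraries labelled Sphk1/2gc-/- had 0.432, 0.557 and 0.104 FPKM. The first 2 WT libraries lay above all others, but WT library 3 lay within the range of the knockout libraries, so the groups overlapped. The means were 1.34 ± 0.770 and 0.364 ± 0.234 FPKM (SD, n = 3), a log2 difference of -0.73 (SE 0.298, limma adjusted p = 0.520). In cumulus cells Sphk1 went against the labels. WT libraries had 7, 6 and 8 Sphk1 reads (0.0911, 0.0699 and 0.0954 FPKM), and the libraries labelled Sphk1/2gc-/- had 7, 43 and 51 reads (0.0778, 0.456 and 0.557 FPKM). Counting error alone allows 31.1 to 57.9 for the 43 reads and 3.45 to 15.8 for the 8 reads (exact Poisson interval, 95%), so libraries 2 and 3 labelled Sphk1/2gc-/- had more Sphk1 reads than any WT library. With these means Sphk1 did not reach the 0.5 FPKM needed for a test in cumulus cells. A noncoding gene on the other strand, Gm29292, overlaps 192 bases of the Sphk1 exons and was at 0.416, 1.12 and 0.204 FPKM in the same libraries and at 0 in WT cumulus cells. The library kit does not mark strand, so reads of the overlap cannot be told apart.

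For Sphk2 no genotype difference was called in either cell type. WT MGCs had 5.26, 5.86 and 5.18 FPKM and MGCs labelled Sphk1/2gc-/- had 4.51, 4.68 and 6.29 FPKM, with knockout library 3 the highest of the 6. The log2 difference was -0.072 with a 95% interval of -0.46 to 0.32 (limma adjusted p = 0.933). WT cumulus cells had 0.403, 0.602 and 0.520 FPKM, and those labelled Sphk1/2gc-/- had 0.434, 0.572 and 0.752 FPKM. Here the log2 difference was 0.070, with an interval of -0.25 to 0.39 (limma adjusted p = 0.751). Dbp and the ribosomal protein gene Rpl18, both on the opposite strand, overlap 912 bases of the Sphk2 exons, and Rpl18 was at 33.3 to 103 FPKM over the libraries. Because neither kinase separates the genotypes in every library, the groups are named here by their labels.

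Sphk2 supplied most of the kinase transcript. Its share of the summed FPKM of Sphk1 and Sphk2 was 75.8%, 75.7% and 91.8% in WT MGCs and 91.3%, 89.4% and 98.4% in the MGCs labelled Sphk1/2gc-/-. In cumulus cells it was 81.6%, 89.6% and 84.5% in WT and 84.8%, 55.6% and 57.5% in the labelled knockout libraries, the last 2 of which are those with more Sphk1 reads. Neither genotype difference passed an exact two-sided permutation test (p = 0.3 in each cell type, where 0.1 is the smallest p that 3 against 3 libraries allow). Of 20 such comparisons of shares, none had an adjusted p below 0.333.

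**Figure D1:**
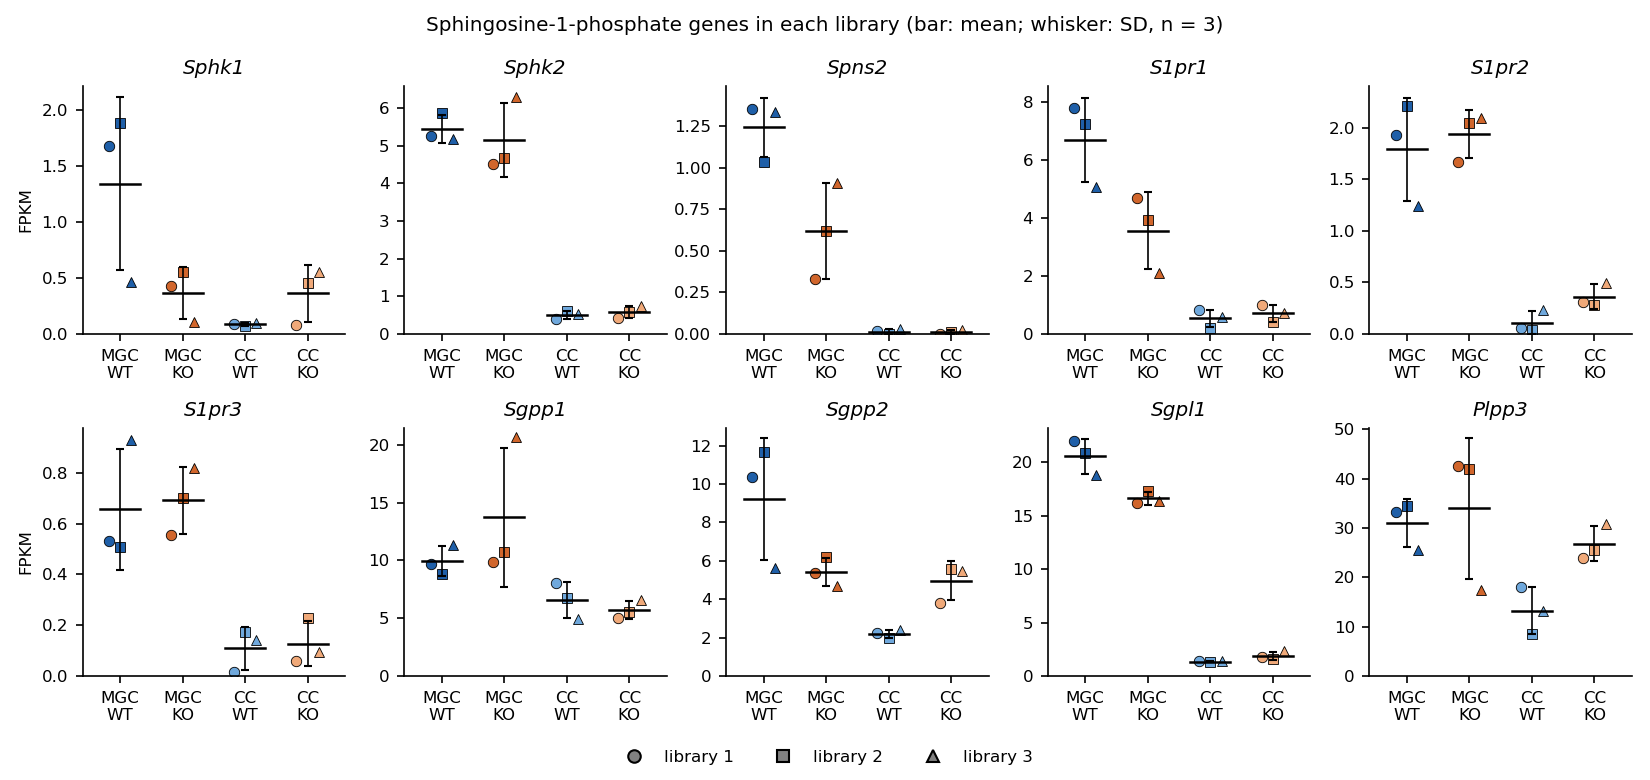
FPKM of the 10 genes (vertical axes, linear and separate for each gene) in WT and Sphk1/2gc-/- (KO) MGCs and cumulus cells (CC). Points are single libraries, bars are means and whiskers are SD of 3 libraries. Most genes sit higher in MGCs, Sgpl1 at 16.2 to 21.97 FPKM against 1.33 to 2.33, whereas the cumulus cell points of Sgpp2 and Plpp3 are higher in KO than in WT without overlap.

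Among the genes that remove S1P, the levels differed by role and by cell type. Sgpl1 (ENSMUSG00000020097, chr10:61098642-61147703, minus strand, 15 exon blocks), the lyase that ends the pathway, was found in WT MGCs at 21.97, 20.9 and 18.8 FPKM and in MGCs labelled Sphk1/2gc-/- at 16.2, 17.3 and 16.3 FPKM. All knockout values lay below all WT values, with means of 16.6 ± 0.600 and 20.5 ± 1.62 FPKM (SD, n = 3). The log2 difference of -0.29 (SE 0.119) had an unadjusted p of 0.0462 but an adjusted p of 0.524 by limma. WT cumulus cells had 1.38, 1.33 and 1.36 FPKM of Sgpl1, and cumulus cells labelled Sphk1/2gc-/- had 1.75, 1.59 and 2.33 FPKM. These groups did not overlap either, in the other direction, with a log2 difference of 0.29 (95% interval -0.050 to 0.63, limma adjusted p = 0.190).

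Sgpp2 (ENSMUSG00000032908, chr1:78310345-78420289, plus strand, 5 exon blocks), which dephosphorylates S1P, was the member with the clearest genotype difference in cumulus cells. Its promoter window is printed with that of Plpp3, since both were called higher in the same libraries. Both windows run from 250 bases before to 50 bases after the start site (RefSeq, GRCm38.p6, 5′ to 3′ on the gene's strand). Capitals mark GGGCGG, the GC box bound by Sp1-type factors, or its reverse complement.
Sgpp2, chr1:78310096-78310395: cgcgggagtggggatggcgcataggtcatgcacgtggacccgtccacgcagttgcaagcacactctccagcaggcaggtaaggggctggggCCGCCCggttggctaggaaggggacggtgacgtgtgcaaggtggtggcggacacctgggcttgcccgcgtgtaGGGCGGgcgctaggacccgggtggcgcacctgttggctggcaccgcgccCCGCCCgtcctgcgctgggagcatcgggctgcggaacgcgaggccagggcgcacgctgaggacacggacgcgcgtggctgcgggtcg
Plpp3, chr4:105157097-105157396: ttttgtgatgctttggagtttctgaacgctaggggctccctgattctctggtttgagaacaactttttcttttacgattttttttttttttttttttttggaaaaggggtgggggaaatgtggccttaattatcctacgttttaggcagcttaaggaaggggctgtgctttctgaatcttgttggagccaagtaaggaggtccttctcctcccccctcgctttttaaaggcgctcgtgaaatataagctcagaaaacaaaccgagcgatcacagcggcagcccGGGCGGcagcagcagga
The Sgpp2 window is 72.0% G or C and holds 3 GC boxes, 2 of them on the opposite strand. The Plpp3 window is 46.0% G or C and holds 1, after the start site. GC boxes occur in 35.7% of all 32851 promoter windows of the table, searched on both strands, and the windows of these genes hold no TGACGTCA, TATAAA or CCAAT.

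The WT cumulus cell libraries had 2.23, 1.97 and 2.40 FPKM of Sgpp2, and those labelled Sphk1/2gc-/- had 3.81, 5.60 and 5.50 FPKM. Every labelled knockout library lay above every WT library, and the ratio of the means (4.97 ± 1.01 to 2.20 ± 0.217 FPKM, SD, n = 3) was 2.25. The log2 difference was 0.88 (SE 0.169, limma adjusted p = 0.00959). WT MGCs had 10.4, 11.7 and 5.62 FPKM, whereas Sphk1/2gc-/- MGCs had 5.38, 6.20 and 4.70 FPKM. WT library 3 lay within the knockout range, and the log2 difference of -0.62 (SE 0.263) had a limma adjusted p of 0.546. Farsb, on the opposite strand, overlaps 248 bases of the Sgpp2 exons, and in cumulus cells it had 86.9, 98.7 and 100.1 FPKM for WT against 94.7, 67.9 and 58.8 FPKM for the labelled knockout.

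Plpp3 (ENSMUSG00000028517, chr4:105157347-105232764, plus strand, 6 exon blocks) encodes a membrane phosphatase that degrades S1P and related lipid phosphates outside the cell. It had the highest mean of the 10 genes in every group. WT cumulus cells had 18.05, 8.52 and 13.1 FPKM, and those labelled Sphk1/2gc-/- had 24.0, 25.6 and 30.8 FPKM, again with no overlap. The ratio of the means was 2.03 (26.8 ± 3.57 to 13.2 ± 4.76 FPKM, SD, n = 3) and the log2 difference 1.02 (SE 0.251, limma adjusted p = 0.0238). WT MGCs had 33.3, 34.5 and 25.4 FPKM of Plpp3, and Sphk1/2gc-/- MGCs had 42.5, 41.9 and 17.5 FPKM. Libraries 1 and 2 of the knockout were the highest and library 3 the lowest of the 6, and the log2 difference was 0.035 with a 95% interval of -0.78 to 0.85.

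Sgpp1 (ENSMUSG00000021054, chr12:75714249-75735729, minus strand, 3 exon blocks), the second S1P phosphatase, showed no called difference. WT MGCs had 9.66, 8.79 and 11.4 FPKM, and Sphk1/2gc-/- MGCs had 9.84, 10.8 and 20.7 FPKM, the last far above the rest. WT cumulus cells had 8.04, 6.77 and 4.91 FPKM and the labelled knockout 5.04, 5.53 and 6.54 FPKM, which overlapped. The log2 difference was 0.37 in MGCs (95% interval -0.29 to 1.02) and -0.16 in cumulus cells (95% interval -0.60 to 0.28).

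The S1P phosphatases made up different shares of their sum. In cumulus cells Sgpp2 took 21.8%, 22.6% and 32.9% of the summed FPKM of Sgpp1 and Sgpp2 in WT and 43.0%, 50.3% and 45.7% in the libraries labelled Sphk1/2gc-/-. The groups did not overlap, and the difference of means was 20.6 percentage points (exact two-sided permutation p = 0.1, the smallest this design allows). In MGCs its share was 51.8%, 57.0% and 33.1% in WT and 35.4%, 36.6% and 18.5% in the knockout, with overlap (exact permutation p = 0.3).

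Spns2 (ENSMUSG00000040447, chr11:72451638-72489904, minus strand, 13 exon blocks), which exports S1P, was a low-level MGC transcript. Levels were 1.35, 1.04 and 1.34 FPKM for WT MGCs and 0.332, 0.622 and 0.908 FPKM for Sphk1/2gc-/- MGCs. The knockout values lay below all WT values, with means of 0.621 ± 0.288 and 1.24 ± 0.178 FPKM (SD, n = 3). The log2 difference was -0.48 (SE 0.188), with an unadjusted p of 0.0384 and a limma adjusted p of 0.509. Cumulus cell libraries had 1, 0 and 2 reads in WT and 0, 1 and 2 reads in the libraries labelled Sphk1/2gc-/-, at or below the floor of 3 reads, so no fold is given. Mybbp1a on the opposite strand, at 36.9 to 56.5 FPKM in MGCs, overlaps 131 bases of the Spns2 exons.

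S1pr1 (ENSMUSG00000045092, chr3:115710433-115715072, minus strand, 2 exon blocks), a receptor that couples to Gi and is abundant on endothelial cells and lymphocytes, was the main S1P receptor transcript of MGCs. WT MGCs had 7.80, 7.26 and 5.06 FPKM, and Sphk1/2gc-/- MGCs had 4.69, 3.93 and 2.09 FPKM. Every knockout library was below every WT library, and the mean was 3.57 ± 1.34 against 6.71 ± 1.45 FPKM (SD, n = 3), a ratio of 0.532. The log2 difference of -0.78 (SE 0.272) had an unadjusted p of 0.0242 and a limma adjusted p of 0.463. WT cumulus cells had 0.816, 0.219 and 0.579 FPKM and the labelled knockout 1.01, 0.399 and 0.719 FPKM, which overlapped (log2 difference 0.16, 95% interval -0.30 to 0.61).

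Endothelial markers also had lower values in Sphk1/2gc-/- MGCs. All 7 markers tested of a list of 8 had a negative log2 difference, with a median of -0.48 against -0.0034 over all genes tested, and 0 of them were called. Their summed level was 14.5 to 18.4 FPKM in WT and 8.31 to 10.5 FPKM in Sphk1/2gc-/- MGCs, with Pecam1 at 2.13, 1.89 and 2.59 FPKM against 1.25, 1.31 and 0.773 FPKM. In cumulus cells the sum was 0.224 to 0.987 FPKM over the 6 libraries, and 0 of the 8 markers reached the level needed for a test. The 10 leukocyte markers summed to 165 to 317 FPKM for WT and 25.6 to 137 FPKM for Sphk1/2gc-/- MGCs, and 4 of 8 tested had a negative log2 difference. For 5 red cell markers these sums were 262 to 404 and 30.6 to 291 FPKM, and 5 of 5 were negative. The part of endothelial cells or blood in the S1pr1, Spns2 and Sphk1 values of MGCs was not tested.

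S1pr2 and S1pr3 couple to several G protein families. S1pr2 (ENSMUSG00000043895, chr9:20962361-20976781, minus strand, 3 exon blocks) was found in WT MGCs at 1.92, 2.21 and 1.24 FPKM and in knockout MGCs at 1.67, 2.04 and 2.09 FPKM, a log2 difference of 0.086 (95% interval -0.37 to 0.54). In cumulus cells it had 7, 6 and 33 reads in WT and 46, 45 and 76 reads in the libraries labelled Sphk1/2gc-/-. These groups did not overlap, but their means of 0.111 and 0.363 FPKM were below the limit for a test. S1pr3 (ENSMUSG00000067586, chr13:51408639-51422797, plus strand, 2 exon blocks) ranged from 0.507 to 0.930 FPKM in WT MGCs and from 0.555 to 0.818 FPKM in knockout MGCs, and had 1 to 20 reads per library in cumulus cells. The log2 difference in MGCs was 0.037 (95% interval -0.37 to 0.44).

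The cAMP response element TGACGTCA, which CREB binds, was looked for in the 14 promoter windows of 9 of the genes that matched the RefSeq table (S1pr1 had no entry). It occurs in 2 of the 14 windows, and in 1.79% of all windows. Counted by gene, that is 2 of 9, against 2.03% of all genes with a window. Both sites are shown with their flanks on the gene's strand, the element in capitals, because the luteinizing hormone receptor signals through cAMP.
Sphk2, chr7:45717982-45718009: ggtgcacgggTGACGTCAcatgagcgcg
S1pr2, chr9:20976957-20976984: aagagagctgTGACGTCAcgcggccgtg
The other Sphk2 window, chr7:45715158-45715457, holds no such element. The Sphk2 element starts at base 4 after the start site of its window, and the S1pr2 element at 181 bases before that of S1pr2. These are matches of letters only, and neither gene was called in a genotype comparison.

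Within each library the 5 receptors S1pr1 to S1pr5 were also compared with each other, which does not depend on scaling between libraries. S1pr1 took 74.3%, 70.2% and 68.9% of their summed FPKM in WT MGCs and 63.6%, 54.7% and 41.8% in the Sphk1/2gc-/- libraries. The groups did not overlap, and the means were 71.1% and 53.3% (exact two-sided permutation p = 0.1, the smallest possible). The S1pr2 share was 18.3%, 21.3% and 16.8% in WT and 22.6%, 28.4% and 41.8% in the knockout, so that in library 3 both receptors had nearly equal levels. In cumulus cells the S1pr1 share was 50.3% to 92.3% in WT and 43.8% to 72.3% in the labelled knockout libraries, with few reads behind it. S1pr4 was at 0 to 0.495 FPKM in MGCs and is not in the cumulus cell table, and S1pr5 had means of 0 to 0.0484 FPKM in the 4 groups.

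**Figure D2:**
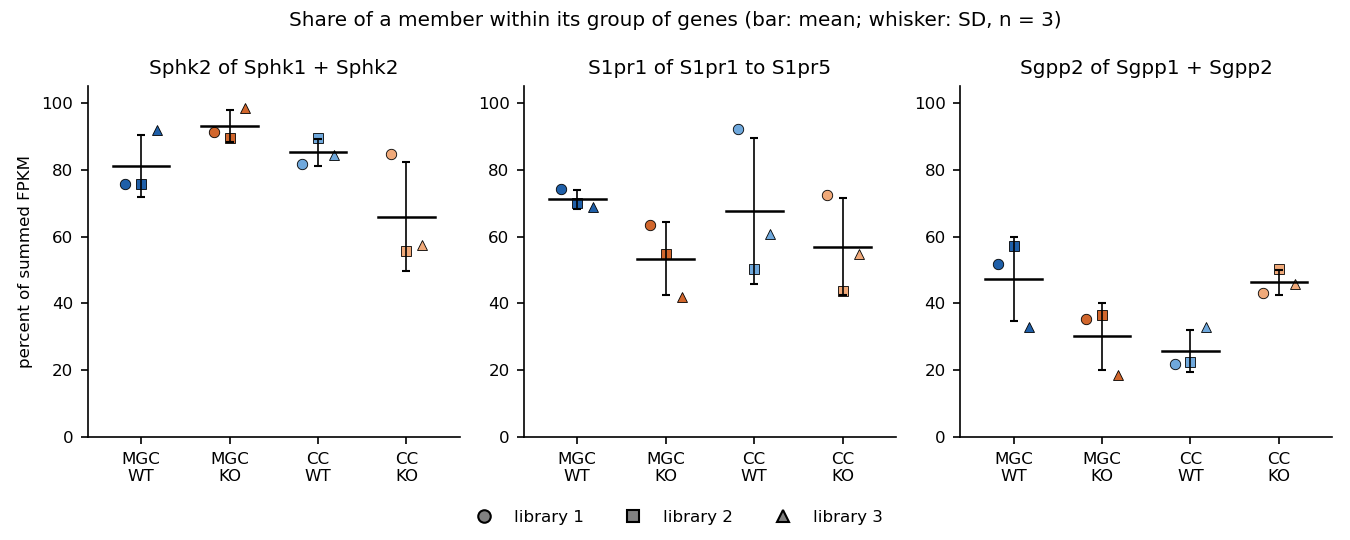
Percent of summed FPKM (vertical axis) taken by Sphk2 among the kinases, S1pr1 among the receptors and Sgpp2 among the S1P phosphatases, in the 4 groups. Points are libraries, bars are means and whiskers are SD of 3 libraries. The S1pr1 share lies at 68.9% or more in WT MGCs and at 63.6% or less in KO MGCs, and the Sgpp2 share at 32.9% or less in WT and 43.0% or more in KO cumulus cells.

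Taking the 10 genes by their counts, 0 were called between genotypes in MGCs, where 0.0393% of 15279 genes tested were called. By unadjusted p of 0.05 or less there were 4, all lower in the knockout (Sphk1, S1pr1, Sgpl1 and Spns2), beside 1406 of all genes tested. Knockout values lay below WT values without overlap for 3 of the 10, against 9.17% of the genes tested. The median log2 difference of the 10 genes was -0.18, and that of all genes tested was -0.0034. The outcome was different without library 3 of both genotypes. Over libraries 1 and 2 alone, with 2 libraries per group, 5 of the 10 genes were called, against 16.1% of 15433 genes tested. These libraries are the closest pair of each genotype. Their chi-square per gene (1 is expected from counting noise) was 5.59 in WT and 8.90 in the knockout. MGC pairs that include library 3 had 49.4 to 173. The choice of libraries thus makes the spread in this fit small. Sphk1 (log2 difference -0.90), Sgpp2 (-0.82), S1pr1 (-0.69) and Sgpl1 (-0.34) were lower in the knockout, where 11% of genes tested were, and Plpp3 (0.31) was higher, where 5.07% were. With any single MGC library left out, 0 of the 10 were called. Library 3 had the lowest leukocyte and red cell marker sums of its group in both genotypes, and their part in this was not tested.

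In cumulus cells 6 of the 10 genes reached the level needed for a test, and 2 of them, Sgpp2 and Plpp3, were called, both higher in the libraries labelled Sphk1/2gc-/-. Over all 12205 genes tested, 22.3% were called, 9.66% higher and 12.7% lower. Of the 6 tested, Sgpl1, Sgpp2 and Plpp3 lay above WT without overlap, against 18.2% of genes tested. S1pr2 lay above WT as well, but was below the level needed for a test and has no such share beside it. The 6 genes had a median log2 difference of 0.22, against -0.056 for all genes tested. The call of Sgpp2 held with any cumulus cell library left out, whereas that of Plpp3 was lost without WT library 2, WT library 3, knockout library 2 or knockout library 3 (limma adjusted p 0.0561 to 0.0885). Both calls were lost when libraries were scaled to a common upper quartile. That scaling moved the median of all genes tested by -0.28, and relative to that median the log2 differences were 0.92 for Sgpp2 and 1.00 for Plpp3, compared with 0.94 and 1.07 without it. Plpp3 was also lost when no filter on low values was used, and Sgpp2 when a fold of 2 was required as well, which 8.04% of genes tested met. The granulosa marker list went the other way from Sgpp2 and Plpp3, with 6 of 10 markers called lower in the same libraries (Cyp19a1, Nr5a2, Inhbb, Inhba, Fshr and Foxl2) and a median of -0.61. Of 4 mural granulosa markers, Cyp11a1 and Lhcgr were called lower. Red cell markers summed to 4.37 to 26.8 FPKM in WT and to 0.300 to 1.78 FPKM in the labelled knockout. Their median log2 difference was -1.87, and Alas2 was called lower. In WT library 2 Alas2 gave 4.03 FPKM of this sum, and Hbb-bs (0.0724 FPKM) lay within the knockout range of 0 to 0.791 FPKM. Alas2 had similar means in WT cumulus cells and WT MGCs (4.28 and 3.86 FPKM), whereas those of Hbb-bs were 4.87 and 178 FPKM. Of 5 theca and stroma markers tested, Cyp17a1 and Lum were called lower (median -0.79). Of 5 leukocyte markers tested, C1qa was called higher and S100a9 lower. The cumulus expansion transcripts Ptx3 and Tnfaip6 were called higher there, by 1.73 and 1.58 on the log2 scale. The part of these cell types in the Sgpp2 and Plpp3 values was not tested.

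**Figure D3:**
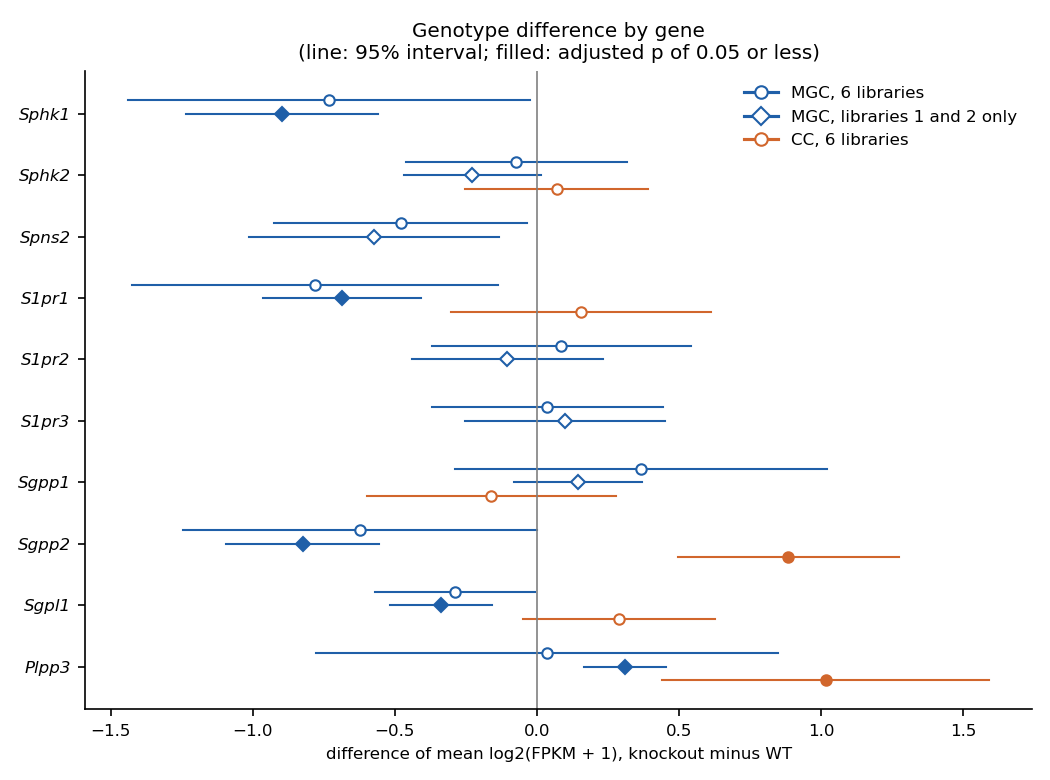
Difference of mean log2(FPKM + 1), Sphk1/2gc-/- minus WT (horizontal axis), for each gene in 6 MGC libraries (blue circles), in MGC libraries 1 and 2 only (blue diamonds) and in 6 cumulus cell libraries (orange). Lines are 95% intervals of the limma fit and filled symbols mark called differences. Among the cumulus cell symbols, Sgpp2 (0.88) and Plpp3 (1.02) are filled, and 4 genes below the filter have none.

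Whether the genotype difference itself differed between the cell types was tested in 1 fit of all 12 libraries. The tables of the cell types are not stated to have been scaled together, which bears on any level set across them. Sgpp2 was the 1 gene of the 10 that was called, with a difference in cumulus cells that exceeded that in MGCs by 1.51 on the log2 scale (SE 0.322, limma adjusted p = 0.0306), where 3.93% of 15869 genes tested were called. Its knockout values were higher than WT in cumulus cells and lower, with overlap, in MGCs. Sphk1 (1.04), S1pr1 (0.94), Sgpl1 (0.58) and Spns2 (0.48) had positive differences of effect, with limma adjusted p between 0.0979 and 0.172. The call of Sgpp2 was lost when 1 of 6 libraries was left out (WT MGC 1 or 2, WT cumulus cell 1 or 2, labelled knockout cumulus cell 2 or 3; limma adjusted p over all left-out libraries 0.00362 to 0.0934), without a filter on low values and with upper quartile scaling. With the library number as a block, Sphk1 (limma adjusted p = 0.0417), S1pr1 (0.0420) and Sgpp2 (0.0208) were called, 3 of the 10 against 5.84% of genes tested. The labels do not pair libraries by this number. Over MGC libraries 1 and 2, the closest pair of each genotype, and all cumulus cell libraries, 4 were called (Sphk1, Sgpl1, Sgpp2 and Spns2), against 15.5%.

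Between the cell types most of the pathway was higher in the MGC libraries. Markers of other cell types were higher there too. For WT, 9 of 9 theca and stroma, 7 of 7 endothelial and 8 of 8 leukocyte markers tested were called higher in MGCs. The same held for 7 of 8 oocyte and 3 of 4 red cell markers tested. The theca and stroma sum was 178 to 335 FPKM in WT MGCs and 17.6 to 64.5 FPKM in WT cumulus cells. The part of these cell types in the differences below was not tested. In WT, 9 of the 10 genes were called, all higher in MGCs, whereas 76.6% of all genes tested were called and 52.5% were called higher in MGCs. Sgpl1 was at 20.5 against 1.36 FPKM, a ratio of the means of 15.1 and a log2 difference of 3.19 (SE 0.131, limma adjusted p = 2.06e-09). That is the largest difference of the 10 on the log2(FPKM + 1) scale, which shrinks those of the low transcripts. By the ratio of the means S1pr2 (16.2) and Sphk1 (15.7) were above it, with log2 differences of 1.32 and 1.05, and by limma-voom on recovered reads so were S1pr2 (4.37) and Spns2 (6.18, with 0 to 2 reads in WT cumulus cells) against 3.94 for Sgpl1. S1pr1 (ratio 12.5) and Sphk2 (ratio 10.7) had log2 differences of 2.33 and 2.09. Sgpp2 was 4.18 times and Plpp3 2.35 times as high in WT MGCs. The call of Plpp3 was lost with upper quartile scaling (log2 difference 0.82, limma adjusted p = 0.0680). Sgpp1 was the exception, at 9.94 against 6.57 FPKM (log2 difference 0.55, limma adjusted p = 0.0629), although its groups did not overlap. All 10 genes had every WT MGC library above every WT cumulus cell library, against 55.7% of genes tested. S1pr3 (0.656 against 0.110 FPKM) and Spns2 (1.24 against 0.0144 FPKM) were called as well. The median log2 difference of the 10 genes was 1.27, against 0.54 for all genes tested.

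Among the libraries labelled Sphk1/2gc-/-, 7 of the 10 genes were called higher in MGCs, where 73.4% of all genes tested were called and 51.3% were called higher. So were 9 of 9 theca and stroma, 6 of 7 endothelial and 7 of 8 leukocyte markers tested. The same held for 7 of 8 oocyte and 4 of 4 red cell markers tested. The part of these cell types was not tested here either. Sgpl1 had a log2 difference of 2.61 (16.6 against 1.89 FPKM, a ratio of 8.78) and Sphk2 of 1.95 with a ratio of 8.81. Sgpp1 was called, at 13.8 against 5.70 FPKM (1.07, limma adjusted p = 0.00204). Sphk1, Sgpp2 and Plpp3 were not, and their ranges overlapped, while the other 7 lay higher in MGCs without overlap, against 52% of genes tested. Sphk1 had a mean of 0.364 FPKM in both, with a log2 difference of 0.0038 (95% interval -0.52 to 0.53). For Sgpp2 it was 0.11 (95% interval -0.38 to 0.61) and for Plpp3 0.24 (95% interval -0.47 to 0.94), and the sign of all 3 turned with upper quartile scaling.

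**Figure D4:**
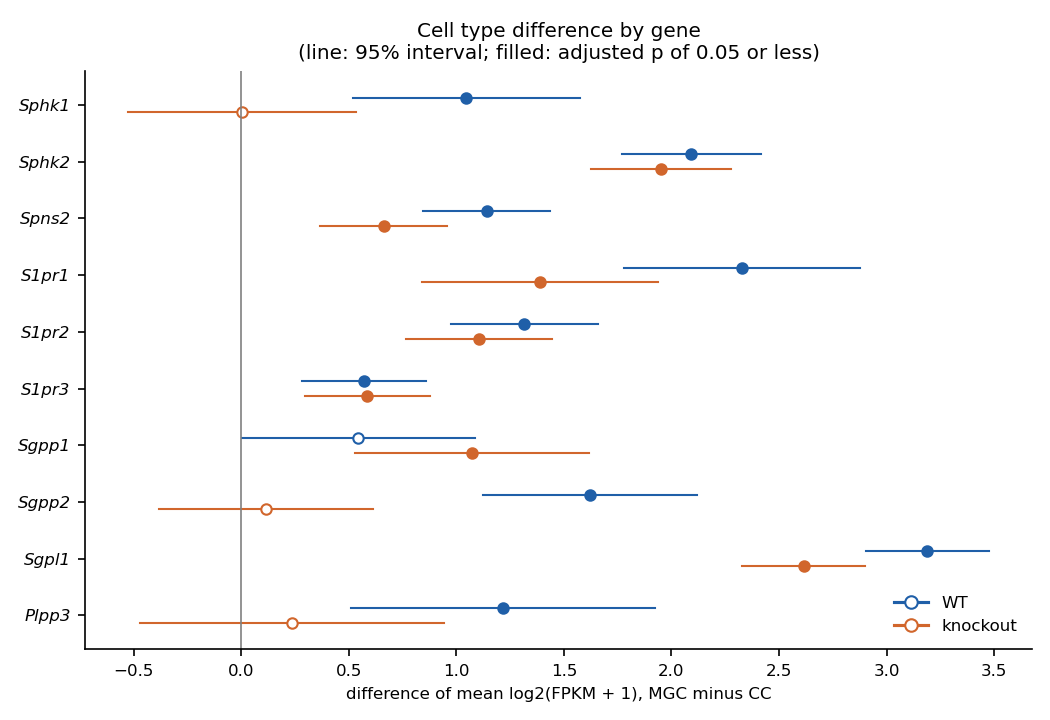
Difference of mean log2(FPKM + 1), MGC minus cumulus cell (CC, horizontal axis), in WT (blue) and in Sphk1/2gc-/- (knockout, orange) for each gene. Lines are 95% intervals of the fit of 12 libraries and filled symbols mark called differences. Sgpl1 lies farthest to the right at 3.19 and 2.61, and Sphk1, Sgpp2 and Plpp3 are open in the knockout.

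The order of levels within a group shows the same contrast. In WT MGCs the genes ranked Plpp3 (31.1 FPKM), Sgpl1 (20.5), Sgpp1 (9.94), Sgpp2 (9.22), S1pr1 (6.71), Sphk2 (5.43), S1pr2 (1.79), Sphk1 (1.34), Spns2 (1.24) and S1pr3 (0.656 FPKM). Neighbours from Sgpp1 to Sphk2 and from S1pr2 to Spns2 had overlapping ranges and are not separated. In WT cumulus cells the order was Plpp3 (13.2 FPKM), Sgpp1 (6.57), Sgpp2 (2.20), Sgpl1 (1.36), S1pr1 (0.538), Sphk2 (0.508), S1pr2 (0.111), S1pr3 (0.110), Sphk1 (0.0855) and Spns2 (0.0144 FPKM). There S1pr1 and Sphk2 overlapped, as did S1pr2, S1pr3 and Sphk1. The lyase thus ranked second in MGCs and below both S1P phosphatases in cumulus cells. In the knockout MGCs Spns2 (0.621) and Sphk1 (0.364 FPKM) ranked last, and in the labelled knockout cumulus cells Sgpp2 (4.97) overlapped with Sgpp1 (5.70 FPKM).

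Profiles over the 12 libraries were compared for the 7 genes whose mean reached 1 FPKM, by the root mean square difference of centred log2(FPKM + 1), among 11829 genes. The nearest genes were Ikbkb and Abcc4 for S1pr2 (0.0758 and 0.1003), Zfyve27 and Shc1 for Sphk2 (0.0861 and 0.0881), and Ddx54 and Firre for Sgpl1 (0.105 and 0.120). Those of Sgpp1 were Dpy19l4 and St3gal2 (0.145 and 0.153), those of Sgpp2 Nexn and Ecm2 (0.146 and 0.167), those of S1pr1 9330136K24Rik and Col5a2 (0.222 and 0.229), and those of Plpp3 Fam102b and Zc3h12c (0.229 and 0.241). The median difference over all genes was 0.683 to 1.23, depending on the gene.

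Other genes of the pathway were taken from a list of 17, which holds ceramidases, transporters, S1pr4 and S1pr5, other lipid phosphatases and enzymes or partners of the kinases. In MGCs 12 were tested and 0 were called between genotypes (median log2 difference -0.12), where 0.0393% of all genes tested were called. In cumulus cells 10 were tested, of which 2 were called higher and 2 lower in the libraries labelled Sphk1/2gc-/- (median 0.14), against 9.66% called higher and 12.7% called lower of all genes tested. Plpp2, another lipid phosphatase, had 5.48, 6.63 and 6.61 FPKM for WT and 11.2, 9.18 and 12.9 FPKM for the labelled knockout (log2 difference 0.73, limma adjusted p = 0.0179). Abca1, a lipid exporter, had 2.34, 1.57 and 1.203 FPKM against 2.65, 3.29 and 3.64 FPKM (0.65, limma adjusted p = 0.0426). In neither gene did the groups overlap.

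The genes called lower were Aldh3a2 and Cib1. Aldh3a2 encodes the aldehyde dehydrogenase that oxidizes the fatty aldehyde released by the lyase, and fell from 14.0, 11.5 and 11.4 FPKM to 6.28, 5.94 and 6.80 FPKM (log2 difference -0.85, limma adjusted p = 0.00675). Cib1 encodes a calcium-binding protein that helps bring SphK1 to the plasma membrane, and fell from 17.5, 15.6 and 14.7 FPKM to 6.41, 9.65 and 8.63 FPKM (-0.89, limma adjusted p = 0.0107). Both were clear of overlap in cumulus cells. Over all 6 MGC libraries neither was called, and the log2 differences were -0.29 and -0.092. Over MGC libraries 1 and 2 alone, the closest pair of each genotype, Aldh3a2 was called lower (-0.62, limma adjusted p = 0.0113), and Cib1 was not (-0.25). The ceramidase transcripts, which release sphingosine from ceramide, were led by Asah1, at means of 87.4 FPKM in WT MGCs, 73.5 in Sphk1/2gc-/- MGCs, 43.1 in WT cumulus cells and 33.1 FPKM in the labelled knockout. Asah2 was at 36.2, 25.3, 2.82 and 3.78 FPKM in the same order, and neither was called between genotypes.

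Of 20 G proteins and effectors of the receptors, 0 of 18 tested were called between genotypes in MGCs (median log2 difference 0.031), and 2 of 17 were called in cumulus cells (median 0.056), both higher in the libraries labelled Sphk1/2gc-/-. Of all genes tested 0.0393% were called in MGCs, and 9.66% were called higher in cumulus cells, so that 2 of 17 is near the background. Akt1, a kinase downstream of Gi-coupled receptors, had 6.00, 7.72 and 8.14 FPKM for WT and 11.2, 11.2 and 13.0 FPKM for the labelled knockout (0.63, limma adjusted p = 0.0264). Gna13, a G protein alpha subunit to which S1pr2 and S1pr3 can couple, was at 6.83, 7.13 and 5.94 FPKM against 8.82, 10.4 and 11.5 FPKM (0.55, limma adjusted p = 0.0370). Between cell types, 13 of 18 genes of this list were called higher in WT MGCs and 1, Rock1, was called lower, against the 52.5% and 24.1% of all genes tested.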

How the data were processed

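RNA of WT and Sphk1/2gc-/- MGCs and cumulus cells at 2 h post-hCG was measured in 12 libraries, 3 per group by the labels. The authors deposited FPKM values, 1 table per cell type (29101 and 33137 genes, 26382 in both); 0 columns of sample values were left unused. The submitters' processing notes name HISAT2 and GRCm38; their roles, the counting tool, strand setting and any scaling across tables are not given in the sources used here. Exon lengths and positions are from GENCODE M21. FPKM times exon length gave whole reads (within 0.02) for 90.6% to 92.1% of values, and for the 10 genes in every library. The depth given is the library total implied by the size of a single read in this product, not a sum over genes. Intervals on reads cover counting error only.

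Genes were tested with limma 3.58.1 (with trend, in R 4.3.3) on log2(FPKM + 1). A gene was tested where its mean reached 0.5 FPKM in at least 1 group of the fit. Genotype was fitted in each cell type by itself, and cell type and the difference of effects in all 12 libraries. The fits of all 12 libraries rest on exon lengths that fit both tables or neither for 99.7% of genes compared. The code was tested on simulated data. The smallest chi-square per gene between libraries of a group was 5.59 (1 is expected from counting noise), so libraries of a group differed by more than counting noise and were each counted once. Libraries of the same animal or RNA are not told apart by this. After removal of group means, same-numbered MGC libraries correlated at 0.250, 0.187 and 0.242. WT library 1 with knockout library 2 had 0.197, and the other unlike-numbered pairs had -0.265 to -0.0104. In cumulus cells the same-numbered pairs had -0.164, -0.0453 and 0.134. Higher there were WT library 2 with knockout library 1 (0.197) and WT library 1 with knockout library 2 (0.164). The labels give no pairing, and these values do not settle one.

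Named were the 10 genes, listed pathway genes called between genotypes or whose mean reached 10 FPKM in any group, up to 4 called effectors, the 2 nearest profiles of each gene whose mean reached 1 FPKM, and markers given as lists. The genes and lists were chosen with earlier results of these data known. Alternatives were other pseudocounts, filters, scaling, variance settings, a required fold, limma-voom on recovered reads, libraries left out and the library number as a block.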

Additional observations from a re-analysis of the deposited data

Results flagged for a closer look

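Sgpp2 was the 1 gene of the 10 whose genotype effect differed between the cell types by the test of that difference. Its log2 difference between Sphk1/2gc-/- and WT was 0.88 in cumulus cells and -0.62 in MGCs, which is a difference of 1.51 (limma adjusted p = 0.0306). In MGCs WT library 3 (5.62 FPKM) lay within the knockout range of 4.70 to 6.20 FPKM. With each of the 12 libraries left out in turn, the call was lost for 6. Single libraries were not screened by Dixon's test, which was not applied to groups of 3.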

How the results depend on the processing

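The 10 genes gave 46 log2 differences over the 5 comparisons, and 950 values were recomputed under 11 alternatives and with each of 12 libraries left out. Of these, 880 kept their direction and their side of the threshold, 20 lost a call, 18 gained one and 32 changed sign; 0 of the sign changes was in a called difference. Genotype in MGCs: 5 genes called over libraries 1 and 2 only, 0 under the other alternatives and with any library left out. Genotype in cumulus cells (2 called): 1 without a filter, 0 with upper quartile scaling, 1 with a fold of 2 required, 1 to 3 with a library left out; the third is Sphk1 (log2 difference 0.47, limma adjusted p = 0.0353) without knockout library 1. Difference of effects (1 called): 0 without a filter and with upper quartile scaling, 4 over MGC libraries 1 and 2, 3 with the replicate block, 0 to 2 with a library left out. The block on the library number left the counts of 0 in MGCs and 2 in cumulus cells as they were. By the labels such libraries share only a number, and in cumulus cells the count over all genes was 1997 with the block and 2725 without it. The causes were not tested.

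Sign changes with upper quartile scaling were in MGCs S1pr3 (-0.0074) and Plpp3 (-0.067), in cumulus cells Sphk2 (-0.087) and S1pr1 (-0.020), in the difference of effects S1pr3 (0.0037), and between cell types in the knockout Sphk1 (-0.069), Sgpp2 (-0.18) and Plpp3 (-0.10). S1pr2 in MGCs was -0.10 over libraries 1 and 2. The difference of effects of S1pr3 was 0.045 at a pseudocount of 0.1 and 0.34 by limma-voom. With a library left out, ranges that cross 0 were, in MGCs, Plpp3 -0.17 to 0.44, S1pr2 -0.065 to 0.19, S1pr3 -0.026 to 0.15 and Sphk2 -0.20 to 0.0028; in cumulus cells, S1pr1 -0.0021 to 0.29 and Sphk2 -0.0047 to 0.14; for the difference of effects, S1pr3 -0.13 to 0.048; and between cell types in the knockout, Sgpp2 -0.034 to 0.20 and Sphk1 -0.16 to 0.15. Depth limits Sphk1, S1pr3 and Spns2 in cumulus cells, where 0 to 51 reads were found per library.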
